A study of Mus musculus with 18 samples.

Results

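The Ly6 surface protein family was followed through 6 genes of mouse chromosome 15, Ly6a, Ly6c1, Ly6c2, Ly6d, Ly6e and Ly6k. They were chosen by symbol, out of 36047 genes with a listed transcript, with earlier results of these data known, so their values are given as a description and carry no p-value. The study's 18 RNA-seq libraries form 6 groups of 3, from 2 mouse lung tumour lines with altered DSTYK, a dual serine/threonine and tyrosine kinase. LLC is labelled as adenocarcinoma, of strain C57BL/6. UN-SCC679 is labelled as squamous carcinoma, of strain A/J. In each line, cells with the construct titled sh3 were compared with cells with the empty TPLKO vector, and all of these cells had received doxycycline. In UN-SCC679, cells with the construct titled OE_DSTYKwt were also compared with cells with the empty pLENTI6 vector, with no treatment named. The labels give no age, clone number or separate cultures, so the spread between libraries of a group may be technical. The line and the strain cannot be told apart.

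Ly6 proteins are small proteins with a fold held by disulphide bonds, and most are tethered to the outer leaflet of the plasma membrane by a glycosylphosphatidylinositol (GPI) anchor. Ly6a is the antigen known as Sca-1, a marker of haematopoietic stem cells and of progenitors in several tissues. Ly6c1 and Ly6c2 together carry the Ly6C antigen, known from monocytes and endothelial cells. Ly6e is widely expressed, is induced by interferon and acts on the entry of several viruses. Ly6d is known from keratinocytes and B-cell precursors, and Ly6k from the testis.

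Because reads are assigned to transcripts by sequence, bases 1 to 270 of the coding part of the 4 detected genes are shown first, 5′ to 3′, from the GENCODE M21 transcripts of GRCm38 (mm10). In the Ly6c1-202 and Ly6c2-201 lines, capitals mark the 7 bases shown at which those genes differ from each other. In the Ly6a-201 line, capitals mark bases that differ from Ly6c1-202 or have no counterpart in it. The Ly6e-215 line has no capitals.
Ly6c1-202: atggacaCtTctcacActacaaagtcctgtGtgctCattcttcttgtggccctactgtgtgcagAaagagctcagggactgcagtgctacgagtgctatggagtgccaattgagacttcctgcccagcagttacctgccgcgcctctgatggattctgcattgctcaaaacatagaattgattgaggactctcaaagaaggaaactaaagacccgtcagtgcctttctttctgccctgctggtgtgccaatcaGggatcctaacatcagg
Ly6c2-201: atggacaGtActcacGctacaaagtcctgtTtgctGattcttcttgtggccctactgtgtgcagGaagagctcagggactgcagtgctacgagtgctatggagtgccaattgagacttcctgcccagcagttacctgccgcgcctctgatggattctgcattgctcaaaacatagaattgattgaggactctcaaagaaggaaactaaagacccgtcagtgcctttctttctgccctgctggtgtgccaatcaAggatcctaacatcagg
Ly6a-201: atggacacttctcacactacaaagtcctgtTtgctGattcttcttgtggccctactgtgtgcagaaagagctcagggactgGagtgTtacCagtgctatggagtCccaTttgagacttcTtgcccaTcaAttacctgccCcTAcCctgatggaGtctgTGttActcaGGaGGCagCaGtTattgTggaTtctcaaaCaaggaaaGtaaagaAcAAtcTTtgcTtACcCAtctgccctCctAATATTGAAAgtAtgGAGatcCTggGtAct
Ly6e-215: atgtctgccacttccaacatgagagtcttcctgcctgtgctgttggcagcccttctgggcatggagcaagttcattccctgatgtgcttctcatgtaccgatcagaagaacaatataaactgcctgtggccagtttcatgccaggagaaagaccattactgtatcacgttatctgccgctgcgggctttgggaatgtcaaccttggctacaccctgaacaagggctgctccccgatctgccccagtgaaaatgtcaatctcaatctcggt

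Ly6c1 and Ly6c2 matched at 384 of 393 coding bases (97.71%), with 9 differing bases and a longest identical run of 188 bases. That run is longer than the 75-base reads, so a read from within it could come from either gene. Ly6a matched Ly6c1 at 83.72% and Ly6c2 at 83.46% of the aligned coding bases. Ly6e matched Ly6a at 56.44%, Ly6c1 at 53.66% and Ly6c2 at 52.22%. Over the whole Ly6c1-202 transcript, 23.17% of all 75-base windows were also present, letter for letter, in another gene, and 21.47% were present in Ly6c2. In Ly6c2-201, 21.93% of windows were present in another gene, all of them in Ly6c1. In Ly6a-201, 0.805% of windows were shared, with Ly6i. No window of Ly6e-215, Ly6d-201 or Ly6k-201 was shared. For shorter stretches of 31 bases the shared part was 57.3% in Ly6c1-202, 53.8% in Ly6c2-201, 22.2% in Ly6a-201 and 1.37% in Ly6e-215. The values of Ly6c1 and Ly6c2 are therefore uncertain against each other, those of Ly6a less so, and the Ly6e value rests almost wholly on its own sequence.

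**Figure D1:**
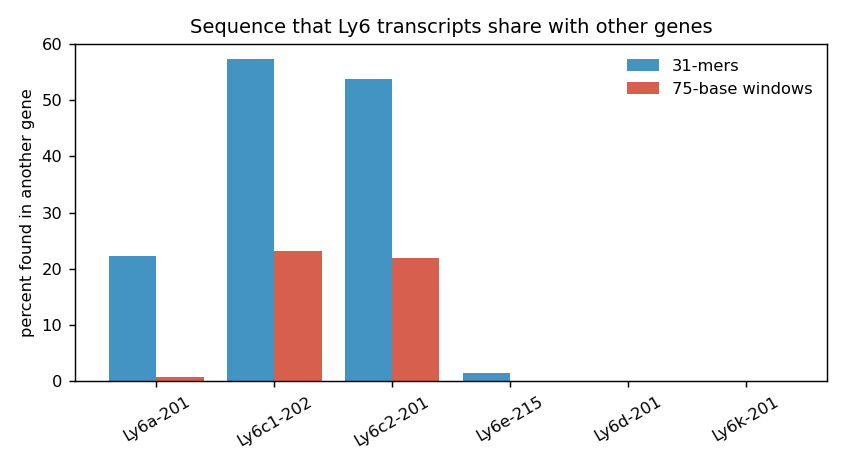
Percent of the sequence of 6 Ly6 transcripts (x axis) that is also found, letter for letter, in a transcript of another gene (y axis, percent), for stretches of 31 bases (blue) and windows of 75 bases, the read length (red). Ly6c1-202 and Ly6c2-201 share 23.17% and 21.93% of their windows, Ly6a-201 shares 0.805%, and the other 3 transcripts share none.

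All 6 genes lie on chromosome 15 of GRCm38, within the stretch from Ly6d to Ly6c2. Ly6d spans 74762056 to 74763620 on the minus strand and Ly6k spans 74796874 to 74799986 on the minus strand. Ly6e spans 74955051 to 74959905 on the plus strand. Ly6a spans 74994877 to 74998031, Ly6c1 spans 75044018 to 75048830 and Ly6c2 spans 75108158 to 75111970, all on the minus strand. RefSeq promoter windows of 300 bases (GRCm38.p6) were at hand for Ly6c1 and Ly6c2 only, 2 for each gene. On both strands, none held TTCNNNGAA (an interferon gamma activated site), the interferon-stimulated response element with its spacer free or TGANTCA (an AP-1 site). Among 32851 promoter windows of that length, 8.298%, 3.443% and 7.808% held these motifs.

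Libraries held 40525385 to 46528071 estimated counts. Dstyk, the altered gene, was counted at 40.7 to 44.9 CPM (counts divided by the library's scaled total and multiplied by a fixed factor) in the empty LLC libraries and at 22.5 to 23.9 CPM in the sh3 libraries. In UN-SCC679 it stood at 36.3 to 38.1 CPM with the empty TPLKO vector and at 25.05 to 26.6 CPM with sh3. It stood at 29.5 to 32.3 CPM with the empty pLENTI6 vector and at 37.3 to 38.6 CPM with OE_DSTYKwt. The arms did not overlap in any of these comparisons. Library 1 of the empty pLENTI6 group stood apart from the other two of its group, with a mean chi-square per gene of 11.2 and 12.7 against 2.41 between the others. For the comparison that uses it, the members' fitted differences and the lists' counts of called genes are given with and without it. The squamous label was met by only part of the squamous list, of whose 10 genes 4 to 6 were under 1 CPM in each UN-SCC679 group. Sox2 stood at 33.9 to 81.1 CPM in the UN-SCC679 groups in which it led that list. Dsg3 was at 0 in all UN-SCC679 groups but OE_DSTYKwt, and Krt5 was at 0 with empty TPLKO. The collagen-led fibroblast list summed to 5547 to 16012 CPM in UN-SCC679 and to 1228 to 1355 CPM in LLC. Of the epithelial list, which summed to 33.5 to 37.9 CPM in LLC, Epcam was at 0 in the LLC sh3 libraries.

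The family was far more abundant in LLC than in UN-SCC679. Levels were compared between genes and groups as TPM, a level per transcript length that sums to the same total in every library. The 6 members summed to 2267 ± 10.3 TPM (SD, n = 3) in LLC with the empty vector and to 2859 ± 22.5 TPM with sh3. In UN-SCC679 the sum was 10.1 ± 0.867 TPM with the empty TPLKO vector, 195.2 ± 1.58 TPM with sh3, 94.3 ± 2.20 TPM with the empty pLENTI6 vector and 20.6 ± 0.671 TPM with OE_DSTYKwt. UN-SCC679 reads come from A/J mice and were assigned to transcripts of the reference strain, C57BL/6. The part of strain differences in the lower UN-SCC679 levels was not tested.

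Ly6e was the most abundant member in 5 of the 6 groups. Its mean level was 1560 ± 7.53 TPM in LLC with the empty vector and 1540 ± 16.1 TPM with sh3, and the libraries of these groups overlapped. It stood at 169.3 ± 2.68 TPM in UN-SCC679 sh3, 31.8 ± 0.0702 TPM with empty pLENTI6, 20.3 ± 0.707 TPM with OE_DSTYKwt and 6.38 ± 0.915 TPM with empty TPLKO. None of these last 4 groups overlapped its neighbour in the order.

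Ly6a led in the remaining group, UN-SCC679 with the empty pLENTI6 vector, where it stood at 53.6 ± 2.63 TPM. Its highest level was 672.4 ± 11.7 TPM in LLC sh3, followed by 377.8 ± 12.3 TPM in LLC with the empty vector. The pLENTI6 group came next, then UN-SCC679 sh3 at 23.2 ± 2.06 TPM, UN-SCC679 with empty TPLKO at 3.32 ± 0.379 TPM and OE_DSTYKwt at 0.208 ± 0.0901 TPM. No neighbours in this order overlapped.

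Ly6c1 followed the same order of groups. It stood at 628.6 ± 3.73 TPM in LLC sh3, 325.6 ± 1.70 TPM in LLC with the empty vector, 7.74 ± 0.355 TPM with empty pLENTI6 and 2.45 ± 0.331 TPM in UN-SCC679 sh3. At the low end, 0.226 ± 0.134 TPM with empty TPLKO and 0.0989 ± 0.171 TPM with OE_DSTYKwt overlapped. Ly6c2 was the least abundant of the 4 detected genes, at 18.1 ± 0.180 TPM in LLC sh3, 3.85 ± 1.18 TPM in LLC with the empty vector and 1.06 ± 0.206 TPM with empty pLENTI6. It stood at 0.226 ± 0.225 TPM in UN-SCC679 sh3 and 0.208 ± 0.0913 TPM with empty TPLKO, which overlapped, and at 0.00527 ± 0.00913 TPM with OE_DSTYKwt.

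Ly6d and Ly6k were not detected. Ly6k had 0 counts in all 18 libraries. Ly6d had 1 count, in an LLC sh3 library, and 0 in the other 17. Over the 3 libraries of a group, a count of 0 allows up to 3 counts, or 0.0222 to 0.0238 CPM, for counting error only. Neither gene could be tested in any comparison.

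**Figure D2:**
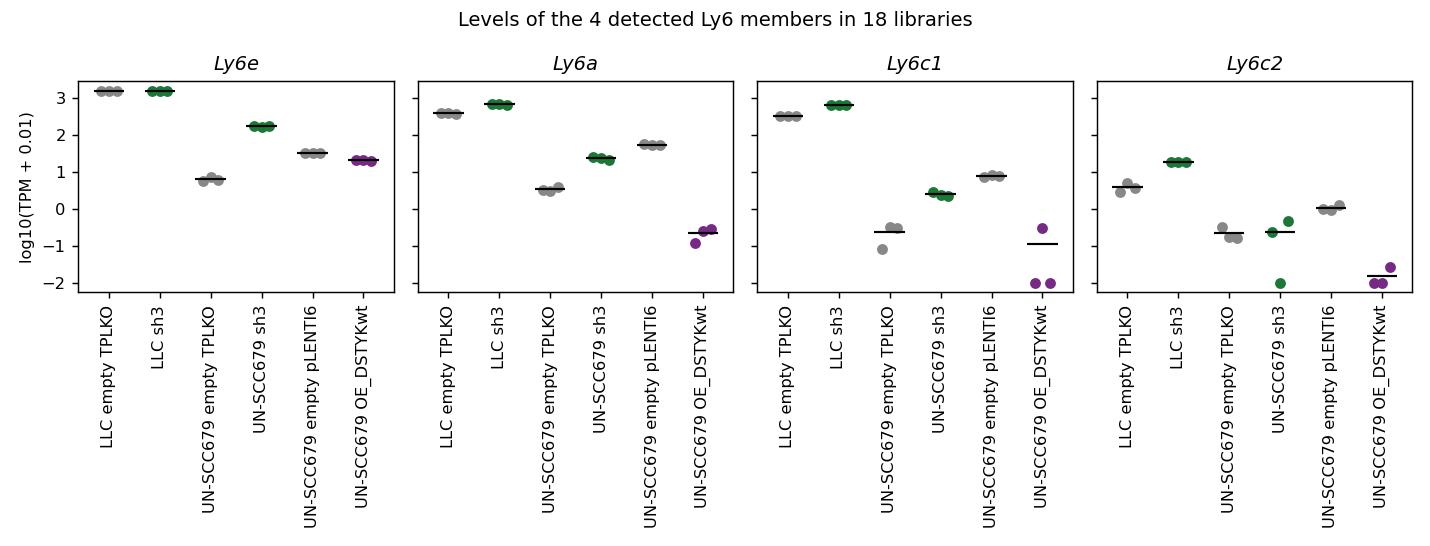
Level of the 4 detected Ly6 genes (panels) in each of 18 libraries (points), by group (x axis), as log10(TPM + 0.01) (y axis), so that a library with no count sits at -2. Horizontal lines mark the group mean, on the same scale. Grey groups carry an empty vector, green groups sh3 and the purple group OE_DSTYKwt. LLC libraries sit above all UN-SCC679 libraries for each gene.

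The 2 UN-SCC679 populations with empty vectors did not have the same Ly6 levels. Ly6a was at 53.6 TPM with pLENTI6 and 3.32 TPM with TPLKO, and Ly6e at 31.8 and 6.38 TPM. Ly6c1 stood at 7.74 and 0.226 TPM. These populations differ in vector, in doxycycline, in the table they were deposited in and in the prefix of their deposited library names. The labels do not say what the prefixes mean, and the difference in Ly6 levels was not tested. The sh3 and OE_DSTYKwt comparisons in UN-SCC679 thus start from different levels.

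In LLC, Ly6a, Ly6c1 and Ly6c2 were higher with sh3 and Ly6e was level. Ly6a was at 180.6, 174.6 and 169.1 CPM with the empty vector and at 314.0, 316.9 and 307.4 CPM with sh3. All sh3 libraries lay above all empty ones, with a log2 difference of 0.85 (SE 0.023), or 1.80-fold. Ly6c1 was at 137.5, 134.9 and 133.9 CPM with the empty vector and at 260.9, 266.2 and 267.1 CPM with sh3, again without overlap. Its log2 difference was 0.97 (SE 0.019), or 1.96-fold.

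Ly6c2 was at 2.85, 3.04 and 2.44 CPM in LLC with the empty vector and at 10.3, 9.95 and 10.3 CPM with sh3. The groups did not overlap, and the log2 difference was 1.88 (SE 0.098), or 3.68-fold. This value is the least certain of the 3, since Ly6c2 held 356 counts in the empty libraries against 17379 for Ly6c1, its near-copy. It was 2.52 with protein-coding transcripts alone and 2.27 with effective-length offsets. With Ly6a, Ly6c1 and Ly6c2 summed into 1 feature, which no reassignment of reads among them can change, the level was 313.0 ± 7.80 CPM (SD, n = 3) in empty and 587.7 ± 4.66 CPM in sh3 libraries. The log2 difference of the sum was 0.92 (SE 0.019).

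Ly6e was at 986.9, 1001.6 and 992.9 CPM with the empty vector and at 988.0, 975.5 and 966.1 CPM with sh3. Libraries of the groups overlapped, and the log2 difference was -0.02 (SE 0.013), or 0.01 when scaled by library size alone. Of the 4 members tested in LLC, 3 did not overlap between groups, as was the case for 75.9% of all 13767 genes tested. Among those genes, 1501 were higher by at least as much as Ly6a, 1213 by as much as Ly6c1 and 329 by as much as Ly6c2, the gene itself included.

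In UN-SCC679 sh3, Ly6e was the member that differed most. It was at 3.36, 4.41 and 3.58 CPM with the empty vector and at 103.9, 102.0 and 105.2 CPM with sh3. The groups lay far apart, with a log2 difference of 4.77 (SE 0.060), or 27.4-fold. Counts rose from 481 to 13381, and no 75-base window of Ly6e-215 is shared with another gene.

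Ly6a was at 1.45, 1.37 and 1.70 CPM with empty TPLKO and at 11.4, 10.8 and 9.50 CPM with sh3 in UN-SCC679. All sh3 libraries lay above all empty ones, with a log2 difference of 2.82 (SE 0.118), or 7.05-fold. Ly6c1 rested on few reads, 13 counts with the empty vector and 128 with sh3. It was at 0.0242, 0.133 and 0.125 CPM with the empty vector and at 1.14, 0.929 and 0.896 CPM with sh3, without overlap. The ratio of counts was 10.1, with a 95% exact interval of 5.70 to 19.5 that covers counting error only. Ly6c1 passed the filter on low counts only through the sh3 libraries.

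Ly6c2 did not pass that filter in UN-SCC679 sh3, with 11 counts for the empty vector and 10 for sh3. Its count ratio of 0.932 had an interval of 0.355 to 2.42, so a difference smaller than this was not detectable at this depth. The sum of Ly6a, Ly6c1 and Ly6c2 was 1.70 ± 0.200 CPM (SD, n = 3) with the empty vector and 11.6 ± 1.04 CPM with sh3, a log2 difference of 2.78 (SE 0.113). All 3 members tested lay without overlap, as did 68.3% of all 14271 genes tested, and Ly6c1 could be tested only because it is high with sh3. No rank is given for Ly6c1 for that reason. Of the 14271 genes, 129 were higher by at least as much as Ly6e and 339 by as much as Ly6a.

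Markers of other cell types moved in the same UN-SCC679 libraries. The 15 leukocyte markers summed to 8.55 to 9.20 CPM with the empty vector and to 13.8 to 16.2 CPM with sh3. Of the 5 tested, 4 rose, where 31.8% of all genes were higher, with an edgeR adjusted p of 3.9e-05 for Csf1r, the receptor of a macrophage growth factor, from 0.796 to 2.57 CPM. Laptm5, a lysosomal protein of blood cells, had 0 counts with the empty vector and 76 with sh3, and passed the filter only through sh3. Adgre1, S100a9 and Tyrobp, which mark myeloid cells, were at 0 in all sh3 libraries. The 8 endothelial markers summed to 4.11 to 4.93 CPM with the empty vector and to 9.54 to 10.5 CPM with sh3, and the 10 squamous markers to 40.9 to 47.8 CPM and 66.6 to 68.8 CPM. The sum of the 7 epithelial markers, led by Krt8, was lower with sh3, at 354.0 to 376.2 CPM against 565.4 to 591.3 CPM. Of the 3 epithelial markers tested, 1 rose and 2 fell. The sum of the 8 fibroblast markers, led by Col1a2, was also lower, at 13493 to 13850 CPM against 15564 to 16012 CPM. Of the 7 fibroblast markers tested, however, 5 rose and 1 fell. Over all genes tested in these libraries, 31.8% were higher and 32.0% lower. In LLC the endothelial sum was 117.6 to 123.5 CPM with the empty vector and 138.7 to 141.1 CPM with sh3, with Emcn at 0. Most of it was Eng, at a mean of 101.4 CPM with the empty vector and 123.1 CPM with sh3. Of the 3 endothelial markers tested in LLC, 1 rose and 1 fell, where 36.2% of all genes were higher and 36.4% lower. Less RNA per cell and fewer cells with that RNA cannot be told apart in these bulk libraries, and the part of these markers in the Ly6 values was not tested.

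With OE_DSTYKwt, Ly6a, Ly6c1 and Ly6c2 were nearly absent. Ly6a was at 26.1, 23.3 and 22.9 CPM with empty pLENTI6 and at 0.0455, 0.0951 and 0.120 CPM with OE_DSTYKwt. This was 3096 counts against 11, and the groups lay without overlap. The ratio of OE_DSTYKwt to empty counts was 0.00360, with an exact 95% interval of 0.00179 to 0.00645 for counting error only. The fitted log2 difference was -8.08, and -8.02 without library 1 of the empty group. Its SE of 0.149, derived from the test's F, is narrower than that interval and understates the error at 11 counts.

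Ly6c1 was at 3.44, 3.66 and 3.49 CPM with empty pLENTI6 and at 0, 0.0713 and 0 CPM with OE_DSTYKwt. Its 454 counts stood against 3, all 3 in OE_DSTYKwt library 2, a ratio of 0.00669 with an interval of 0.00138 to 0.0197. The fitted log2 difference was -7.06 with all libraries, -10.24 without that library and -7.08 without library 1 of the empty group. Ly6c2 was at 0.275, 0.332 and 0.436 CPM with empty pLENTI6 and had 1 count in OE_DSTYKwt library 3, 45 counts against 1. That ratio was 0.0225, with an interval of 0.000558 to 0.132, and the fitted log2 difference was -5.03, or -5.17 without library 1 of the empty group. The sum of these 3 genes was 28.0 ± 1.62 CPM (SD, n = 3) with the empty vector and 0.118 ± 0.0642 CPM with OE_DSTYKwt, from 3595 and 15 counts. Single empty libraries held 29.8, 27.3 and 26.8 CPM of the sum, library 1 being the highest. No reassignment of reads among Ly6a, Ly6c1 and Ly6c2 alters that sum.

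Ly6e differed less with OE_DSTYKwt than Ly6a, Ly6c1 and Ly6c2 did. It was at 18.7, 18.1 and 17.7 CPM with empty pLENTI6 and at 12.04, 11.3 and 10.8 CPM with OE_DSTYKwt. The groups did not overlap, and the log2 difference was -0.68 (SE 0.052), or 1.60-fold lower, and -0.66 without library 1 of the empty group. All 4 members tested lay without overlap, with 45.9% of all 13975 genes tested doing so. Nothing is read from this count, since Ly6a, Ly6c1 and Ly6c2 passed the filter only through the empty libraries, where they are high. For the same reason no rank is given for these 3 genes. Of the 13975 genes, 433 were lower by at least as much as Ly6e. The 15 leukocyte markers summed to 19.0 to 20.9 CPM in the empty and 20.1 to 21.3 CPM in the OE_DSTYKwt libraries, and the 8 endothelial markers to 7.67 to 8.76 CPM and 7.76 to 8.70 CPM. These sums overlapped between the groups, as did the squamous sums of 143.6 to 153.5 CPM and 152.9 to 160.4 CPM. Even so, edgeR called all 5 squamous markers tested, 4 higher and 1 lower, with 14.6% of all genes higher and 15.2% lower. The 8 fibroblast markers summed to 5547 to 5712 CPM in the empty and 5685 to 5800 CPM in the OE_DSTYKwt libraries, and of 6 tested 3 rose and 0 fell. The 7 epithelial markers summed to 897.1 to 964.8 CPM in the empty and 746.1 to 773.5 CPM in the OE_DSTYKwt libraries, without overlap, and both markers tested fell. The part of these markers in the Ly6 values was not tested.

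**Figure D3:**
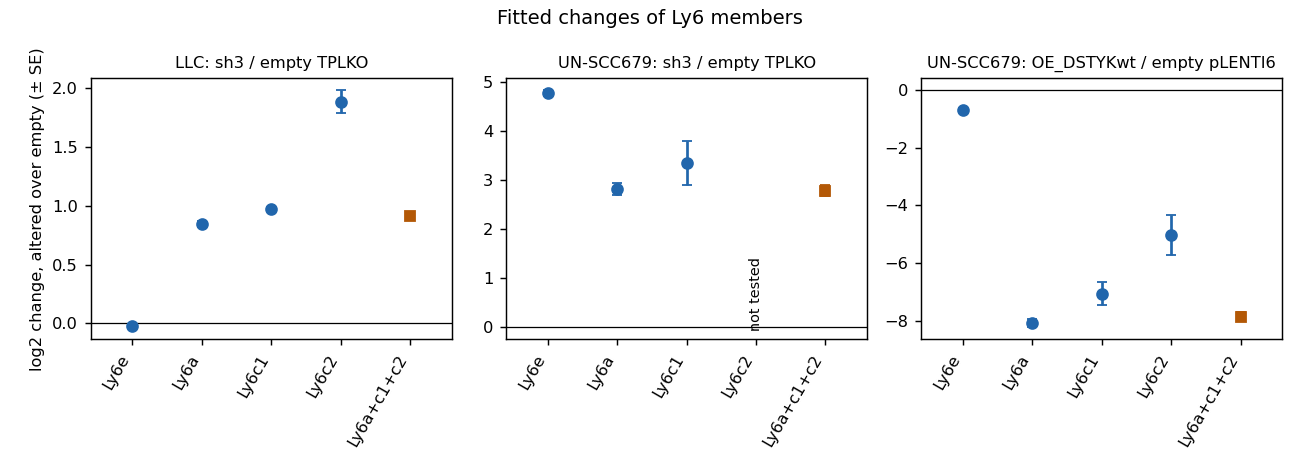
Fitted log2 difference, altered over empty vector (y axis), of 4 Ly6 genes (circles) and of the sum of Ly6a, Ly6c1 and Ly6c2 (squares). Each of the 3 comparisons sets 3 against 3 libraries. Bars are the SE derived from the test's F and can understate the error of genes with few counts. The panels have different y axes. Ly6e lies at -0.02 in LLC and at 4.77 in UN-SCC679 sh3, and values of genes with few counts (Ly6c1 and Ly6c2 in UN-SCC679) depend on the prior count of the fit.

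The make-up of the family shifted in each comparison. Ly6e made up 68.8 ± 0.476% (SD, n = 3) of the TPM of the 6 members in LLC with the empty vector and 53.9 ± 0.186% with sh3. In UN-SCC679 its part was 62.8 ± 4.50% with empty TPLKO and 86.7 ± 1.13% with sh3. With empty pLENTI6 it was 33.8 ± 0.804%, and with OE_DSTYKwt 98.5 ± 1.04%. Ly6c1 stood at 86.2 ± 2.43 per 100 of Ly6a TPM in LLC with the empty vector and 93.5 ± 2.20 with sh3. In UN-SCC679 this ratio was 6.83 ± 4.18 with empty TPLKO, 10.5 ± 0.861 with sh3 and 14.5 ± 1.29 with empty pLENTI6. With OE_DSTYKwt it ran from 0 to 121.7 per 100 on 3 Ly6c1 and 11 Ly6a counts, too few to place the genes in an order. Ly6c2 stood at 1.18 ± 0.361 per 100 of Ly6c1 TPM in LLC with the empty vector and at 2.88 ± 0.0356 with sh3.

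Transcript forms differed in how firmly they carried each gene. Ly6e-215, a protein-coding form of 4 exons, took 83.5% to 93.3% of the Ly6e counts of every group. Ly6a-201, with 3 exons, took 96.8% and 96.5% of the Ly6a counts in the LLC groups, 93.8% in UN-SCC679 sh3 and 75.0% with empty pLENTI6, where Ly6a-202 took 14.2%. Ly6c1 was assigned mostly to Ly6c1-202 in LLC (62.2% empty, 61.1% sh3) and in the UN-SCC679 TPLKO groups (96.09% empty, on 13 counts, and 75.45% sh3). With empty pLENTI6 it was assigned mostly to Ly6c1-201 (96.0%). Single LLC sh3 libraries held 1204 to 2959 counts of Ly6c1-201. The sequence that Ly6c1-201 and Ly6c1-202 share with each other was not counted. Both forms code for protein, have 4 exons and share 57.1% (Ly6c1-201) and 57.3% (Ly6c1-202) of their 31-base stretches with other genes.

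For Ly6c2, the coding form Ly6c2-201 took 23.6% of the counts in LLC with the empty vector and 37.8% with sh3, and none in any UN-SCC679 group. The retained-intron form Ly6c2-202 took 59.4% and 36.5% in LLC, and it shared at least 1 stretch of 31 bases with 1961 other genes. Ly6c2 counts outside LLC were thus assigned to other forms than Ly6c2-201, and the origin of these few reads is not known. Part of the Ly6c2 counts in LLC was assigned to Ly6c2-202, of whose stretches of 31 bases 23.89% were shared with other genes. Of its windows of read length, 7.406% were shared, with Ly6c1 only, against 21.93% in Ly6c2-201.

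Most genes of related fold outside the 6 members stood at low levels. Of 33 genes listed as Ly6/uPAR relatives, 31 had a transcript, and 24 of these stayed below 1 CPM in every group. The other 7 were Lynx1, Plaur, Cd59b, Lypd1, Lypd6b, Ly6i and Ly6g. By edgeR's quasi-likelihood test with adjustment over all genes, 6 of 11 tested relatives rose and 2 fell in LLC sh3, where 72.6% of all genes were called, 36.2% higher and 36.4% lower. The list's median log2 difference was 0.48 against 0.01 for all genes. In UN-SCC679 sh3, 2 of 6 rose and 1 fell, with 63.8% of all genes called, 31.8% higher and 32.0% lower, and medians of -0.05 and 0.01. With OE_DSTYKwt, edgeR called 0 of 4 relatives, 0 at an unadjusted p under 0.05 and 0 with DESeq2. Of all genes, 29.7% were called, 14.6% higher and 15.2% lower, and the medians were 0.06 and 0.00256. Of the 7 relatives above, those not tested there were Ly6i (17 counts empty, 0 altered), Lynx1 (19 and 7), Lypd6b (0 and 2) and Ly6g (0 and 0).

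Lynx1, which modulates nicotinic acetylcholine receptors and lies beside Ly6d, rose in both lines. It went from 1.56 ± 0.103 to 3.85 ± 0.237 CPM (SD, n = 3) in LLC, with an edgeR adjusted p of 2.8e-06. In UN-SCC679 it went from 0.0524 ± 0.0708 to 1.33 ± 0.112 CPM, or 7 against 172 counts, with an edgeR adjusted p of 2.5e-05, and it passed the filter there only through the sh3 libraries. Plaur, the urokinase receptor, rose from 76.7 ± 2.41 to 88.7 ± 1.75 CPM in LLC and fell from 78.2 ± 1.53 to 50.7 ± 0.158 CPM in UN-SCC679 sh3. With OE_DSTYKwt it stood at 102.0 ± 2.94 CPM empty and 100.7 ± 0.961 CPM altered. Cd59b, a complement inhibitor, rose from 39.8 ± 1.499 to 45.4 ± 1.99 CPM in UN-SCC679 sh3.

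In LLC, 4 more of these 7 relatives passed the test. Ly6g, part of the Gr-1 antigen of neutrophils, rose from 1.32 ± 0.229 to 2.01 ± 0.167 CPM, and had at most 2 counts in any UN-SCC679 group. Ly6i rose from 0.184 ± 0.191 to 1.07 ± 0.125 CPM, passed the filter only through sh3, and is the gene that shares 75-base windows with Ly6a-201. Lypd1 rose from 0.621 ± 0.279 to 1.83 ± 0.495 CPM. Lypd6b fell from 3.23 ± 0.217 to 2.40 ± 0.347 CPM.

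Listed neighbours of the cluster on chromosome 15, which leave out the Ly6/uPAR relatives there (Lynx1, Ly6i and Ly6g among them), were called in both directions. Of 25 tested in LLC, 9 rose and 11 fell, with a median log2 difference of -0.16, where 36.2% of all genes were higher and 36.4% lower. In UN-SCC679 sh3, 8 of 26 rose and 11 fell, with a median of -0.06, against 31.8% and 32.0% of all genes. With OE_DSTYKwt, 3 of 25 rose and 6 fell, with a median of -0.05, against 14.6% and 15.2%, and 9 were called without library 1 of the empty group. Beyond the Ly6 genes and Lynx1, which lie nearer, Them6 and Zfp41 are the nearest expressed genes of this list on either side. Zfp41, a zinc finger gene, fell from 24.6 ± 1.97 to 19.2 ± 0.747 CPM in LLC, and was called in neither UN-SCC679 comparison. It stood there at 24.6 and 25.8 CPM (empty and sh3) and at 12.5 and 11.8 CPM (empty and OE_DSTYKwt). Them6, a thioesterase family gene, stood at 12.9 and 14.1 CPM in LLC without a call. It rose from 4.77 ± 0.218 to 6.17 ± 0.802 CPM in UN-SCC679 sh3 and fell from 9.70 ± 0.161 to 4.90 ± 0.650 CPM with OE_DSTYKwt.

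Farther along the chromosome, single genes with the smallest p went either way. Grina rose from 199.8 ± 3.58 to 302.3 ± 8.51 CPM in LLC and from 108.5 ± 1.64 to 126.3 ± 0.237 CPM in UN-SCC679 sh3. Puf60, a splicing factor, fell from 173.5 ± 0.979 to 129.4 ± 2.75 CPM in LLC. Nrbp2 rose from 10.8 ± 0.516 to 25.6 ± 0.841 CPM in UN-SCC679 sh3. Gsdmd, the pore-forming effector of pyroptosis, rose from 26.6 ± 0.820 to 34.3 ± 0.757 CPM with OE_DSTYKwt.

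**Figure D4:**
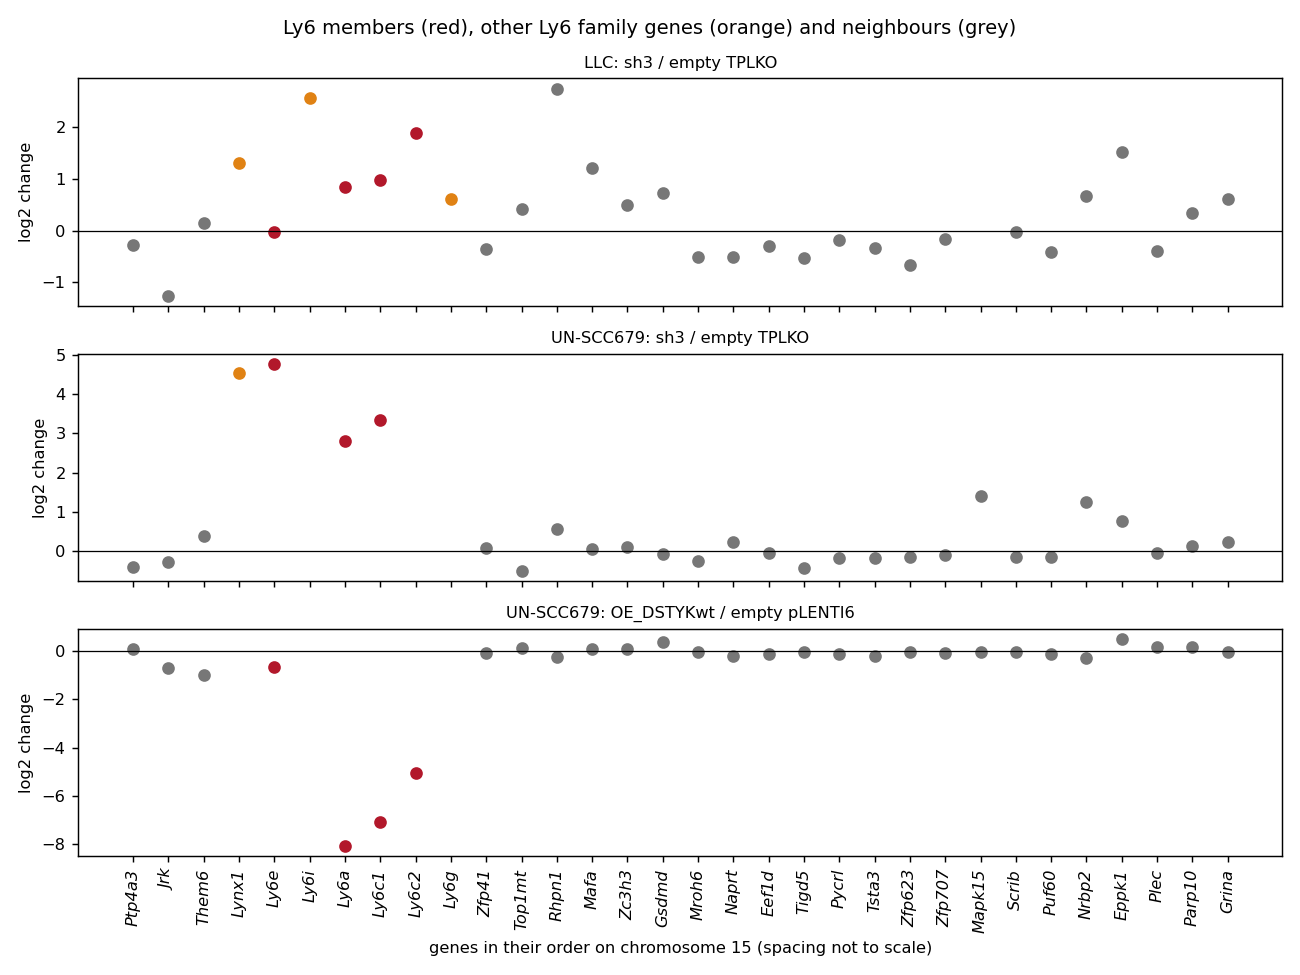
Fitted log2 difference, altered over empty vector (y axis), of genes tested along chromosome 15, in chromosome order (x axis, spacing not to scale), in 3 comparisons with different y axes. Members are red, other Ly6 family genes orange and listed neighbours grey. In UN-SCC679 the members lie at 2.82 to 4.77 with sh3 and at -0.68 to -8.08 with OE_DSTYKwt.

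Genes of the machinery that makes and attaches the GPI anchor were called in both directions in each comparison. Of 29 tested genes, 9 rose and 15 fell in LLC, with a median log2 difference of -0.20, where 36.2% of all genes were higher and 36.4% lower. In UN-SCC679 sh3, 5 rose and 7 fell, with a median of -0.05, against 31.8% and 32.0% of all genes. With OE_DSTYKwt, 3 rose and 1 fell, with a median of 0.03, against 14.6% and 15.2%, and 6 were called without library 1 of the empty group. Piga, whose product starts anchor synthesis, rose from 21.6 ± 0.378 to 41.7 ± 0.755 CPM in LLC and fell from 43.3 ± 0.417 to 30.01 ± 0.985 CPM in UN-SCC679 sh3. Pigt, part of the transamidase that attaches the anchor, rose from 56.8 ± 1.75 to 103.1 ± 3.82 CPM in LLC. Pigp, of the same first enzyme as Piga, rose from 9.03 ± 0.885 to 14.8 ± 0.575 CPM in UN-SCC679 sh3. Pigg and Pign, which add ethanolamine phosphate to the anchor, rose with OE_DSTYKwt, from 24.6 ± 1.38 to 29.1 ± 0.831 CPM and from 116.0 ± 8.93 to 135.1 ± 1.75 CPM.

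Interferon receptors, factors and induced genes were examined because Ly6a and Ly6e are known to respond to interferon. Of 40 tested in LLC, 19 rose and 6 fell, with a median log2 difference of 0.23, where 36.2% of all genes were higher and 36.4% lower. In UN-SCC679 sh3, 22 of 46 rose and 13 fell, with a median of 0.12, against 31.8% and 32.0% of all genes. With OE_DSTYKwt, 14 of 46 rose and 6 fell, with a median of 0.05, against 14.6% and 15.2%, and 22 were called without library 1 of the empty group. Ifitm3, which blocks virus entry, rose from 161.2 ± 2.49 to 257.2 ± 0.667 CPM in LLC and from 118.6 ± 2.77 to 220.2 ± 2.05 CPM in UN-SCC679 sh3.

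B2m, the light chain of MHC class I, rose from 245.0 ± 3.07 to 539.5 ± 7.32 CPM in LLC and fell from 358.9 ± 9.45 to 324.7 ± 9.69 CPM in UN-SCC679 sh3. Bst2, which tethers budding virus, rose from 10.9 ± 1.35 to 24.4 ± 0.360 CPM in LLC and fell from 207.0 ± 3.29 to 92.3 ± 3.29 CPM in UN-SCC679 sh3. Rsad2, the antiviral enzyme viperin, fell from 1.71 ± 0.204 to 0.0709 ± 0.0422 CPM with OE_DSTYKwt, 221 counts against 9, and passed the filter only through the empty libraries. It rose from 0.120 ± 0.0515 to 1.10 ± 0.0784 CPM in UN-SCC679 sh3, where it passed the filter only through the sh3 libraries. In LLC it fell from 0.762 ± 0.129 to 0.261 ± 0.148 CPM. Dhx58, a cytoplasmic RNA sensor, rose from 8.15 ± 0.0543 to 12.6 ± 0.417 CPM with OE_DSTYKwt.

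The genes whose levels ran most like each member's were found by Pearson's r of log2(CPM + 1) over the 18 libraries. The libraries fall into 2 cell lines and 6 groups, so r mostly follows the groups and is given as a description. Ly6a was closest to Tmem176b (r = 0.971), Slc2a1 (0.968) and Mmd (0.968). For Ly6c1 these were Tomm20 (0.994), Kdm1a (0.991) and F2rl1 (0.991). For Ly6c2 they were Tspan9 (0.996), Rpia (0.993) and Fndc3a (0.992). For Ly6e they were Sdc1 (0.989), Map4k3 (0.989) and Smim13 (0.988). No gene was among the 3 nearest of more than 1 member.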

How the data were processed

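Estimated counts per transcript, with lengths and effective lengths, were deposited by the authors for 118489 transcripts in 18 libraries. The submitters' processing notes name kallisto, sleuth and the build mm10, and no versions. Per the labels' protocols, libraries came from a stranded mRNA kit, read for 75 bases in single-end and paired-end runs. Kallisto divides a read among the transcripts it matches. The deposited estimated counts were summed per gene with GENCODE M21 (116816 transcripts matched, and 0.515% to 0.593% of counts left out) and rounded. TPM was recomputed from counts and effective lengths. CPM used TMM scaling within each comparison. Genes were tested with edgeR 4.0.16 (quasi-likelihood, filterByExpr with a minimum count of 10, Benjamini-Hochberg adjustment, threshold 0.05), 3 against 3 libraries, and the fit was tested on simulated data. The SE of a log2 difference was its size divided by the square root of the test's F. It can understate the error where counts are few. Shared sequence was counted in the GENCODE M21 transcripts. Named genes were the members, Dstyk, the 2 genes of smallest adjusted p per list and comparison, relatives reaching 1 CPM, the 3 nearest by r where mean log2 CPM reached 3, and the nearest expressed neighbours. Further values of these genes, of markers and of single libraries were picked after they were seen. Members and lists were chosen with earlier results of these data known. DESeq2 1.42.0, limma 3.58.1, other filters, effective-length offsets, coding transcripts alone, summed members and left-out libraries were the alternatives.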

Additional observations from a re-analysis of the deposited data

Results flagged for a closer look

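The sh3 effect differed between LLC and UN-SCC679 for 5 of the 7 relatives of the Ly6 members that reach 1 CPM in some group, by the interaction term of an edgeR fit over the 12 sh3 and empty TPLKO libraries, adjusted over 15399 genes, of which 9230 were called. The log2 change in LLC minus that in UN-SCC679 was -3.23 for Lynx1 (adjusted p = 6.0e-05 by edgeR), which rose in both lines and had 7 counts in the empty UN-SCC679 libraries. For Plaur it was 0.83 (edgeR adjusted p = 2.7e-11), with a rise in LLC and a fall in UN-SCC679. For Cd59b it was -0.224, for Lypd1 1.90 and for Lypd6b -2.90, the last on 2 and 13 counts in the UN-SCC679 groups. Ly6f, Ly6g5b and Lypd6, which stay below 1 CPM, also passed this test, Ly6g5b at -2.18. Ly6f and Lypd6 had 0 counts in the empty TPLKO libraries of UN-SCC679, so no size is given for them. No such test was made for the 6 members, which were chosen with their results known.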

How the results depend on the processing

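The count of called genes in LLC and in UN-SCC679 sh3, and the interaction, stayed within 1.5 times under every alternative run. With OE_DSTYKwt, 4154 calls became 2644 with limma on log2(TPM + 1). Called relatives went from 8 to 5 in LLC with a filter of 1 CPM in 3 libraries, from 3 to 5 in UN-SCC679 sh3 with no filter, and from 0 to 1 with OE_DSTYKwt with no filter. Leaving out 1 library at a time gave 9644 to 9848 calls in LLC, 8531 to 8838 in UN-SCC679 sh3 and 2887 to 4936 with OE_DSTYKwt, the highest without library 1 of empty pLENTI6. Relatives called were then 7 to 8, 3 to 4 and 0. Library size alone gave 5333 higher and 3753 lower calls in UN-SCC679 sh3, against 4541 and 4571. With the replicate block, calls numbered 9925, 8806 and 3771, and 9060 of the interaction against 9230. Same-numbered libraries correlated at -0.134 to 0.126, so no clear pairing by number was seen. A weak shared effect could give such values, so this check cannot exclude that same-numbered libraries were handled together.

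Among the members, differences of genes with few counts moved most. On log2(TPM + 1), which understates low genes, Ly6c1 was at 1.49 in UN-SCC679 sh3, and with OE_DSTYKwt Ly6a was at -5.50, Ly6c1 at -3.00 and Ly6c2 at -1.03. Without OE_DSTYKwt library 3, which held its only count, Ly6c2 was at -6.92. Under a filter of 1 CPM, Ly6c1 in UN-SCC679 sh3 and Ly6c2 with OE_DSTYKwt gave no value.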
